A study of Mus musculus with 6 samples.

Results

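Intraflagellar transport (IFT) and BBSome transcripts were followed from meiosis to the round spermatid stage in mouse testis. The members were defined by gene symbol, with earlier results of these data known. They were all deposited transcript entries (contigs) whose symbol named an IFT protein, a dynein-2 or BBSome subunit or a BBSome assembly or recruitment protein. This gave 61 contigs of 37 genes among 12114 contigs in all, of which 11517 were annotated transcripts of 6985 named genes. The P/D group was enriched for pachytene and diplotene spermatocytes and the RS group for round spermatids. Both were sorted from the testes of adult C57BL/6J/B6 males by red fluorescence, DNA content and light scatter. Each group had 3 samples, each a pool of mRNA from 3 mice, and the labels name only the strain as genotype, with no allele, transgene or agent. The 3 P/D samples were sequenced as 1 barcoded library and the 3 RS samples as another, so library and cell type cannot be told apart in any comparison made here. Native poly(A) RNA was read by nanopore direct RNA sequencing, in which every read carries its own poly(A) tail, and tail lengths are given in nucleotides (nt).

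The samples held between 244004 and 474688 aligned reads, of which 1099 to 1830 per sample, and 8093 over all samples, came from the members. The spermatocyte markers Sycp3, Piwil1 and their list made up 0.174% to 0.179% of reads in P/D and 0.0638% to 0.0727% in RS, while the round spermatid list made up 0.0796% to 0.0984% in P/D and 0.301% to 0.328% in RS. Reads of 8 genes listed for elongating spermatids (Prm1, Tnp1, Odf1 and others) accounted for 0.184% to 0.243% of P/D reads and 2.31% to 2.80% of RS reads. The study states that transition protein, protamine, Smcp and Odf1 mRNAs are already made in round spermatids and translated later. Reads of this list therefore cannot tell round from elongating spermatids. Not every spermatocyte marker was lower in RS: Syce3 had 46, 29 and 35 reads across P/D and 69, 105 and 66 across RS, and Ccna1 57, 91 and 70 against 88, 130 and 103. The study's own microscopy showed that many cells of the P/D gate were not pachytene or diplotene spermatocytes. Its round spermatid gate was purer. Somatic markers were near 0, with 0 to 3 Sertoli cell reads and 1 to 7 Leydig cell reads per sample, and no read of the peritubular, endothelial or macrophage lists. The part that other germ cell stages in a sort play in the differences below was not tested.

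IFT trains carry cargo along the microtubules of a growing cilium or flagellum. The IFT-B complex travels outwards with kinesin-2 motors, and the IFT-A complex returns to the cell body with dynein-2. The BBSome is a coat-like adaptor that rides on the trains and moves membrane proteins, after the small GTPase Arl6 has brought it to the membrane. In male germ cells these proteins are known for building the sperm tail, whose axoneme starts to grow in early round spermatids. A poly(A) tail protects an mRNA from decay and binds proteins that favour its translation.

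Sequences of 3 loci on which the results turn are printed here. The first exon of the short Ift172 contig (ENSMUST00000201426, annotated by GENCODE as a retained intron transcript) shows what separates it from the 48-exon Ift172 mRNA. It lies on the minus strand at chr5:31254402-31254653 (GRCm38) and is 252 nt long, with capitals for the 191 nt (chr5:31254462-31254652) that are spliced out as an intron of the long transcript (ENSMUST00000041565, chr5:31253277-31291107). The other 551 of its 742 nt are exons shared with that transcript, and both end within 3 nt of each other.

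Ift172 short contig, first exon: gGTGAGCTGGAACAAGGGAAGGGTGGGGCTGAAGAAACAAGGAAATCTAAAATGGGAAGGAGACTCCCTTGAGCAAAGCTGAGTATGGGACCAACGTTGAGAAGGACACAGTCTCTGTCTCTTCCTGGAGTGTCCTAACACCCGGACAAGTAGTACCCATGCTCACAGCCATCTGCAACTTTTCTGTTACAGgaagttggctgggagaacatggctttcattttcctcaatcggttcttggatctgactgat

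Upstream sequences are shown for Lztfl1, whose accumulation and tails behaved unlike those of most members, and for the neighbouring genes Ift70a1 and Ift70a2, whose accumulation differed (RefSeq, build GRCm38.p6, minus strand). The Lztfl1 stretch is the 250 bases before its start (chr9:123717626-123717875), the Ift70a1 stretch the 250 bases before its start (chr2:75981968-75982217), and the Ift70a2 stretch the 76 bases that lie between the end of Ift70a1 and the start of Ift70a2 in GENCODE (chr2:75978171-75978246). Capitals mark GTTGCC or its reverse complement GGCAAC, the half-site of the X-box bound by RFX factors, which are known regulators of ciliary genes.

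Lztfl1: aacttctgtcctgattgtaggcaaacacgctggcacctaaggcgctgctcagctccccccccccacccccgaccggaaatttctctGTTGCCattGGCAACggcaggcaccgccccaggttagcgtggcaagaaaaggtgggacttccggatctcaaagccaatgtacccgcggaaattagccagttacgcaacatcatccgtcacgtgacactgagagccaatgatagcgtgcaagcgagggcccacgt

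Ift70a1: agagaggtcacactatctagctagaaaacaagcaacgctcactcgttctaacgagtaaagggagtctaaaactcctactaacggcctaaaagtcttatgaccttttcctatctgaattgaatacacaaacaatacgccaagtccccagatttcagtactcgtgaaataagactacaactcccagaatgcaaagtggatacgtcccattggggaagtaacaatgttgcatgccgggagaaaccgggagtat

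Ift70a2: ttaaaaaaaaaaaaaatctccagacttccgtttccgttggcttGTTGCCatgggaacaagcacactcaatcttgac

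Lztfl1 held a pair of these half-sites facing each other, Ift70a2 held 1 and the Ift70a1 stretch none. RefSeq promoter windows (250 bases before to 50 after the start) were found for 32 of the 37 member genes, and 13 of them (40.6%) contained GTTGCC on either strand, against 3423 of 27025 promoters of the same length (12.7%). The palindrome TGACGTCA, the cAMP response element, was present in 1 of the 32 (3.12%, Ift57) and in 1.88% of all promoters. Of the 13 genes with the X-box half-site 5 were higher and 4 lower in RS by the test described below, 3 were not called and 1 was not tested. Of the 19 without it 3 were higher, 7 lower, 4 not called and 5 not tested. Among all genes tested 34.7% were higher and 31.2% lower. These letter matches describe the windows only and are not evidence of binding.

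Reads of the members carried longer tails in RS than in P/D. The share of member reads with tails of 120 to 210 nt was 28.6%, 25.4% and 25.3% across P/D and 56.6%, 56.8% and 59.0% across RS. The groups did not overlap, and the mean rose from 26.4% ± 1.87 (SD, n = 3) to 57.5% ± 1.32, a difference of 31.0 percentage points. Among all reads the same class went from 29.6% ± 0.938 to 67.5% ± 0.992, a difference of 37.9 points. Tails of 30 to 120 nt fell from 62.3% ± 3.09 to 30.5% ± 1.75 of member reads and from 61.1% ± 1.54 to 22.3% ± 1.64 of all reads. In RS, tails of 30 to 120 nt thus made up a larger share of member reads than of all reads.

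Mean tail length was tested by limma for the 38 member contigs that reached 10 reads in 2 or more samples of either group and had a mean in 2 or more samples of both. Of these, 24 (63.2%) were longer in RS, 0 were shorter and 14 did not pass an adjusted p of 0.05 (Benjamini-Hochberg over all contigs tested). Among all 6990 contigs tested, 54.2% were longer and 1.69% shorter. The median difference was 52.1 nt over the members tested and 37.4 nt over all contigs. Also at an unadjusted limma p under 0.05, and by the equal-variance test of the methods with adjustment, 0 members were shorter. That equal-variance test called 21 longer. It did not call the main contigs of Dync2i1 and Ift57 or Ift43 ENSMUST00000223269 (adjusted p = 0.093, 0.0841 and 0.0946). Its share over all contigs was not counted. With the reads of each gene summed, 19 of 30 member genes were longer and 0 shorter, against 54.8% and 2.07% of 5407 genes. The remaining 23 contigs were too shallow for the test.

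**Figure D1:**
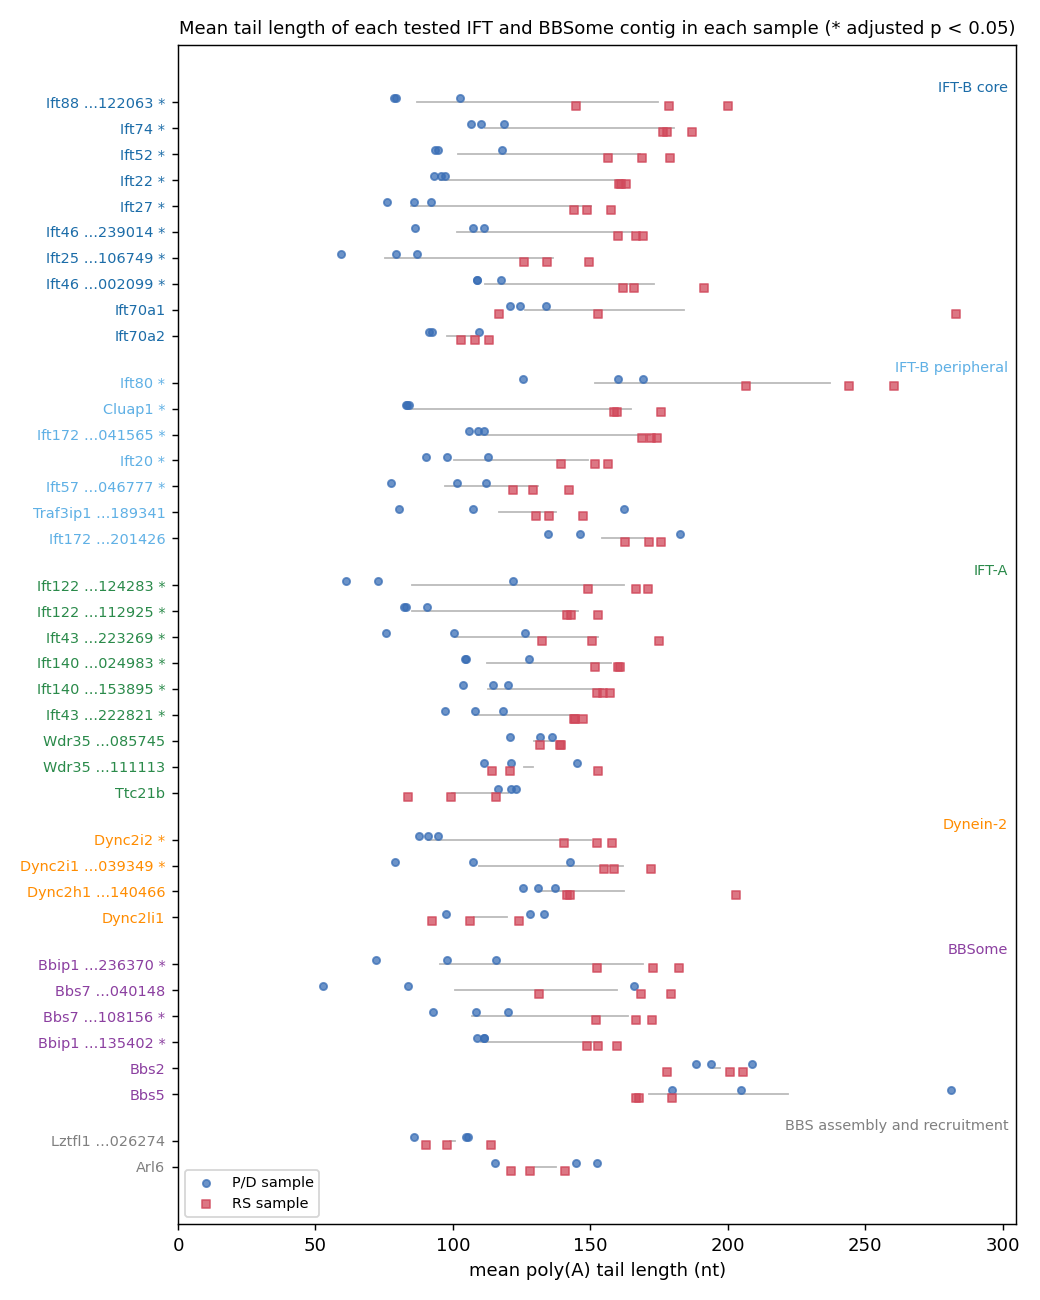
Mean poly(A) tail length (nt, x axis) of the 38 tested member contigs in each of 3 P/D samples (blue circles) and 3 RS samples (red squares), grouped by complex, with a grey line between the group means and an asterisk at an adjusted p under 0.05. Every RS sample lies to the right of every P/D sample in 25 of the 38 contigs, and to the left in Ttc21b and Bbs5. How many of all contigs separate in this way was not counted, and 54.2% of those tested were called longer.

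Accumulation was tested by edgeR on read counts, and 33 member contigs passed its filter on low counts. In RS 5 (15.2%) were higher and 15 (45.5%) lower, against 32.6% and 30.8% of all 6005 contigs tested. The median log2 fold change, RS over P/D, was -0.33 for the members tested and -0.03 for all contigs. Per gene, 8 of 29 members were higher and 12 lower, where 34.7% and 31.2% of 4967 genes were called. Fewer cells of a type in a sort and less RNA per cell cannot be told apart in these bulk samples. DESeq2 was run without the edgeR filter, over 61 member contigs and 37 member genes. It called 3 contigs higher and 11 lower, and 3 genes higher and 10 lower. The share that DESeq2 called over all contigs or genes was not counted.

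**Figure D2:**
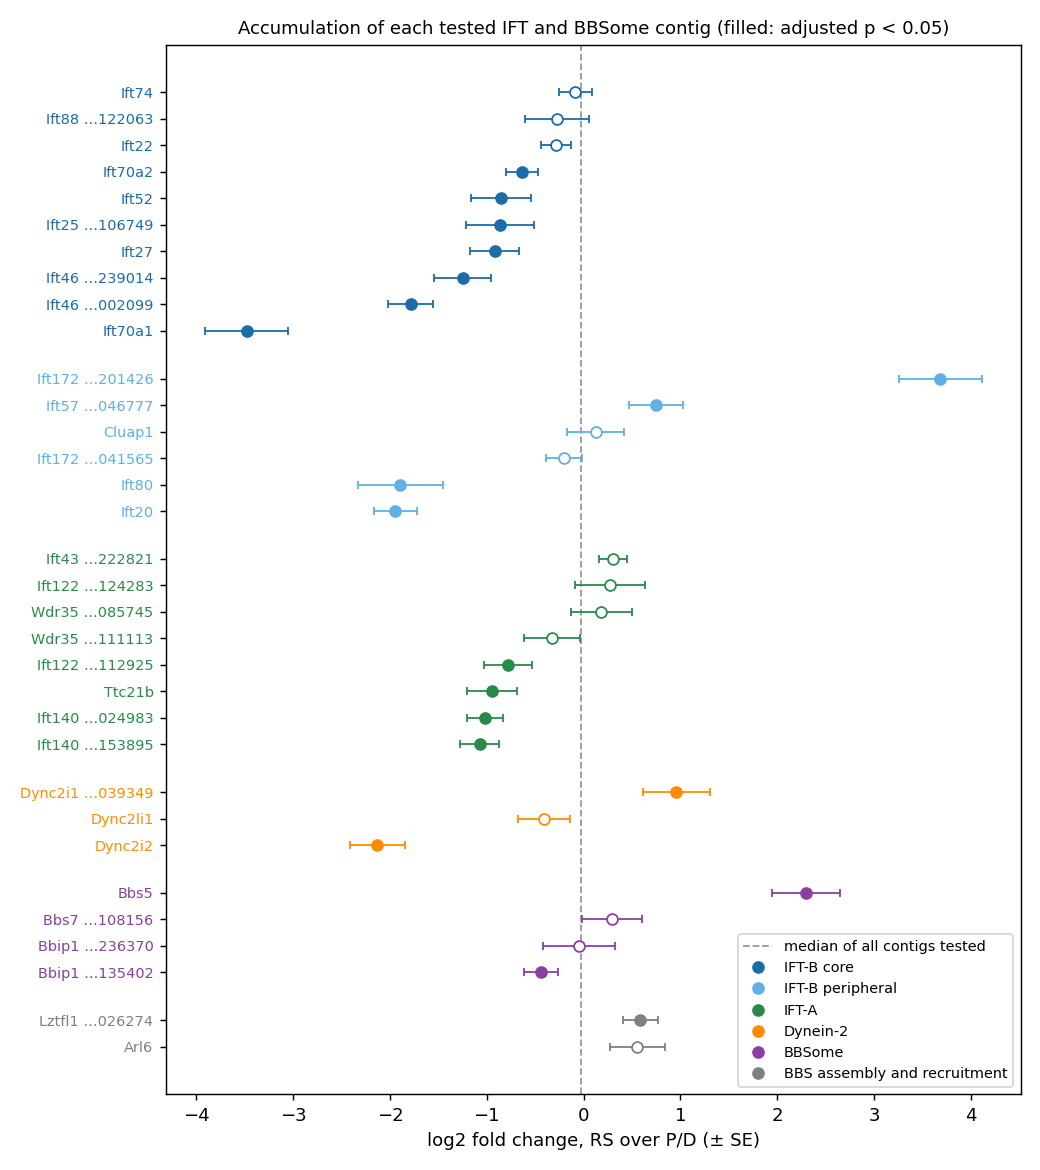
log2 fold change in accumulation (RS over P/D, x axis) with its SE for the 33 tested member contigs, coloured by complex. Filled points passed an adjusted p of 0.05 in edgeR, and the dashed line at -0.03 is the median of all contigs tested; the extremes are the short Ift172 contig at 3.68 and Ift70a1 at -3.48.

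In the IFT-B core, the rigid centre of the train, no gene was called higher in RS. Of its 12 genes with reads, 9 could be tested, and 6 were lower and 0 higher, where 31.2% of all genes tested were lower and 34.7% higher. At an unadjusted p under 0.05 in edgeR, and by DESeq2, 0 were higher as well, and DESeq2 called 4 lower. The median log2 fold change of the 9 genes was -0.80. Tails lengthened in 7 of the 9, against 54.8% of all genes, the exceptions being Ift70a1 and Ift70a2. The same shares over all genes stand behind the counts of the other complexes, which rest on few genes each.

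Ift46, which binds Ift52, showed the largest fall among the core genes with lengthened tails. Its main contig had 60, 56 and 63 reads across P/D and 27, 26 and 17 across RS. Every RS sample was below every P/D sample once scaled to depth, and the log2 fold change was -1.79 ± 0.23 (adjusted p = 6.86e-09), or 3.45-fold lower. A second contig (ENSMUST00000239014) moved the same way, by -1.25 ± 0.29 (adjusted p = 0.000302). The remaining contig (ENSMUST00000118186), not tested, had 3, 6 and 3 reads across P/D and 3, 11 and 5 across RS. Summed over its 3 contigs, Ift46 changed by -1.40 ± 0.17 (adjusted p = 4.6e-09), or 2.63-fold lower. Tails of the main contig measured 109, 109 and 118 nt across P/D and 162, 166 and 191 nt across RS, a gain of 61.4 ± 9.35 nt (adjusted p = 0.00215), and those of the second gained 63.6 ± 8.32 nt (adjusted p = 0.00121). The fewer Ift46 mRNAs of RS therefore bore the longer tails.

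Ift27, a small GTPase-like protein, and Ift25 (Hspb11 in GENCODE) form a dimer at the edge of the core. Ift27 had 27, 35 and 29 reads across P/D and 14, 27 and 24 across RS, a log2 fold change of -0.92 ± 0.25 (adjusted p = 0.00173). Its tails were 92, 76 and 86 nt across P/D and 144, 157 and 149 nt across RS, and the groups were far apart (65.4 ± 7.07 nt, adjusted p = 0.000667). Ift25 had fewer, 10, 15 and 22 reads across P/D and 8, 20 and 7 across RS on its deeper contig, with a log2 fold change of -0.86 ± 0.35 (adjusted p = 0.0307). That call was lost with DESeq2 (adjusted p = 0.179) and without P/D replicate 3, RS replicate 1 or RS replicate 3 (0.262, 0.0922 and 0.169). Tails of the same contig were 59, 79 and 87 nt across P/D and 134, 149.6 and 126 nt across RS, the shortest P/D level among the members tested, and gained 61.4 ± 10.1 nt (adjusted p = 0.00296). Both members of the dimer thus shared the direction of both measures.

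Ift52, a scaffold of the core, counted 18, 20 and 18 reads across P/D and 9, 20 and 13 across RS, and its log2 fold change of -0.85 ± 0.31 (adjusted p = 0.015) was not called by DESeq2 (adjusted p = 0.129) or without RS replicate 1 (0.0602). Its tails gained 66.3 ± 9.73 nt (adjusted p = 0.00186), with means of 102 ± 13.7 nt (SD) in P/D and 168 ± 11.3 nt in RS. Ift22, another small GTPase-like subunit, had the second most reads of all member contigs. Ift22 had 88, 104 and 99 reads across P/D and 100, 116 and 105 across RS, and the change of -0.29 ± 0.15 (adjusted p = 0.0954) was not called. Its tails were 97, 93 and 95 nt across P/D and 163, 160.3 and 161 nt across RS, with hardly any spread between replicates, and differed by 66.2 ± 5.18 nt (adjusted p = 0.00049). Of its pooled reads 17.5% in P/D and 78.2% in RS carried tails of 120 to 210 nt.

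Ift74, which binds tubulin together with Ift81, had no called change in accumulation, at -0.09 ± 0.17 (adjusted p = 0.687) on the log2 scale. Its tails were 118, 110.3 and 107 nt across P/D and 177, 178 and 187 nt across RS, longer by 68.7 ± 6.36 nt (adjusted p = 0.000505). Ift88, the polaris protein without which cilia do not form, had the largest tail difference of the tested contigs, 87.7 ± 15.4 nt (adjusted p = 0.0038), with means of 79, 79 and 102 nt across P/D and 145, 200.2 and 178 nt across RS. Its reads were few, 8, 23 and 12 across P/D and 14, 22 and 12 across RS, and accumulation was not called (-0.27 ± 0.33, adjusted p = 0.482). Ift81 and Ift56 (57 and 50 reads over all samples) were not tested, and neither was Ift70b (11 reads). The mean Ift81 tail was 98.4, 98.5 and 90.0 nt in P/D and 198.0, 143.6 and 171.5 nt in RS.

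The Ift70 proteins are tetratricopeptide subunits of the core encoded by single-exon genes on the minus strand of chromosome 2. Ift70a1 (Ttc30a1 in GENCODE, chr2:75978247-75981967) ends 76 bases before the start of Ift70a2 (Ttc30a2, chr2:75975740-75978170). Ift70a1 had 20, 21 and 28 reads across P/D and 1, 2 and 5 across RS, a log2 fold change of -3.48 ± 0.43 (adjusted p = 3.46e-09), or 11.1-fold lower, the largest fall of any member tested. Ift70a2 had 81, 115 and 79 reads across P/D and 66, 114 and 61 across RS, with a log2 fold change of -0.63 ± 0.16 (adjusted p = 0.00077), or 1.55-fold lower. The difference between the paralogs was not itself tested. Ift70a1 took 19.6%, 15.3% and 25.9% of the reads of the 3 Ift70 genes in P/D and 1.45%, 1.64% and 7.58% in RS. The exact 95% binomial intervals, which cover counting error only, were 9.75% to 35.2% over the P/D samples and 0.0367% to 16.8% over RS. The last 500 nt of the Ift70a1 transcript matched Ift70a2 at only 51.6% of positions in the best alignment, while the whole Ift70a2 transcript matched Ift70a1 at 87.41%. How well reads were divided between the paralogs was not tested.

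Tails of Ift70a2 were 91, 93 and 109.6 nt across P/D and 103, 108 and 113 nt across RS, a difference of 10.2 ± 7.35 nt (adjusted p = 0.286) that was not called. Of its pooled reads 25.1% in P/D and 34.9% in RS fell into the class of 120 to 210 nt. In RS, Ift70a2 tails ranged from 103 to 113 nt, below every RS sample of the other tested core contigs. The Ift70a1 mean in RS rested on 1, 2 and 5 reads and differed by 57.8 ± 41.3 nt (adjusted p = 0.281).

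Peripheral IFT-B subunits, which link the core to the tubulin cargo and the motors, did not share one direction. Of 6 genes tested 3 were higher and 2 lower in RS, and tails lengthened in 5. Ift20, which also works at the Golgi, counted 61, 69 and 73 reads across P/D and 15, 38 and 19 across RS, a log2 fold change of -1.94 ± 0.22 (adjusted p = 3.38e-10), or 3.85-fold lower. Its tails were 113, 90.3 and 98 nt across P/D and 152, 139 and 156 nt across RS, longer by 48.9 ± 8.47 nt (adjusted p = 0.00363). Ift80 had a log2 fold change of -1.89 ± 0.44 (adjusted p = 0.000258), with 9, 10 and 12 reads across P/D and 2, 7 and 2 across RS, on its one contig, which GENCODE labels a retained intron transcript. Its tails were the longest of the lengthened members, 169, 160.0 and 125 nt across P/D and 260.4, 207 and 244 nt across RS (85.5 ± 17.5 nt, adjusted p = 0.00708), but the RS means rested on 2, 7 and 2 reads.

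Cluap1 (Ift38) showed the narrowest P/D tails of all tested members. They measured 83.4, 84.1 and 82.9 nt in P/D and 159.9, 158 and 176 nt across RS, a difference of 81.2 ± 6.74 nt (adjusted p = 0.00049). Its accumulation was 0.12 ± 0.30 (adjusted p = 0.735) on the log2 scale. Ift57 was higher in RS, with 11, 24 and 10 reads across P/D and 29, 39 and 34 across RS and a log2 fold change of 0.75 ± 0.28 (adjusted p = 0.0192). The call was absent with DESeq2 (adjusted p = 0.0952) and without P/D replicate 1 or 3 (0.0989 and 0.134). Its tails gained 34.0 ± 10.9 nt (adjusted p = 0.0377), a call lost when any sample but P/D replicate 1 was left out (adjusted p from 0.0511 to 0.113). With both contigs summed, the log2 fold change was 0.90 ± 0.27 (adjusted p = 0.00329, at most 0.0488 with a sample left out). The summed tails gained 37.1 ± 9.40 nt (adjusted p = 0.0159), a call lost without RS replicate 1 (0.055). Traf3ip1 (Ift54) had 79 reads in all, a gene-level log2 fold change of 0.97 ± 0.38 (adjusted p = 0.0235) that DESeq2 did not call (adjusted p = 0.139), and that was lost without P/D replicate 1 or 3 or RS replicate 2 (0.0715, 0.157 and 0.266). Tails of its deeper contig (ENSMUST00000189341) were 107, 80.4 and 162 nt across P/D and 147, 135 and 130.1 nt across RS, which overlapped, and differed by 20.7 ± 20.5 nt (adjusted p = 0.43), or 43.5 nt (adjusted p = 0.0199) without P/D replicate 3. With both contigs summed the difference was -3.9 ± 17.4 nt (adjusted p = 0.865).

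Ift172, the largest peripheral subunit and a factor in train turnaround at the tip, was represented by the 2 contigs introduced above. The 48-exon contig had 54, 92 and 50 reads across P/D and 49, 102 and 80 across RS, a log2 fold change of -0.20 ± 0.18 (adjusted p = 0.351) that was not called. The short 5-exon contig had 2, 1 and 3 reads across P/D and 28, 48 and 34 across RS. The groups did not overlap, and the log2 fold change was 3.68 ± 0.43 (adjusted p = 6.58e-10), or 12.9-fold higher, the largest rise of any member tested. The short contig made up 3.57%, 1.08% and 5.66% of Ift172 reads in P/D and 36.4%, 32.0% and 29.8% in RS. Exact 95% binomial intervals reached 15.7% at most in P/D and 21.6% at least in RS. A read cut short at its 5′ end can be placed on a 3′ isoform, and whether the short reads start within the intron could not be read from tables of counts and tails.

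**Figure D3:**
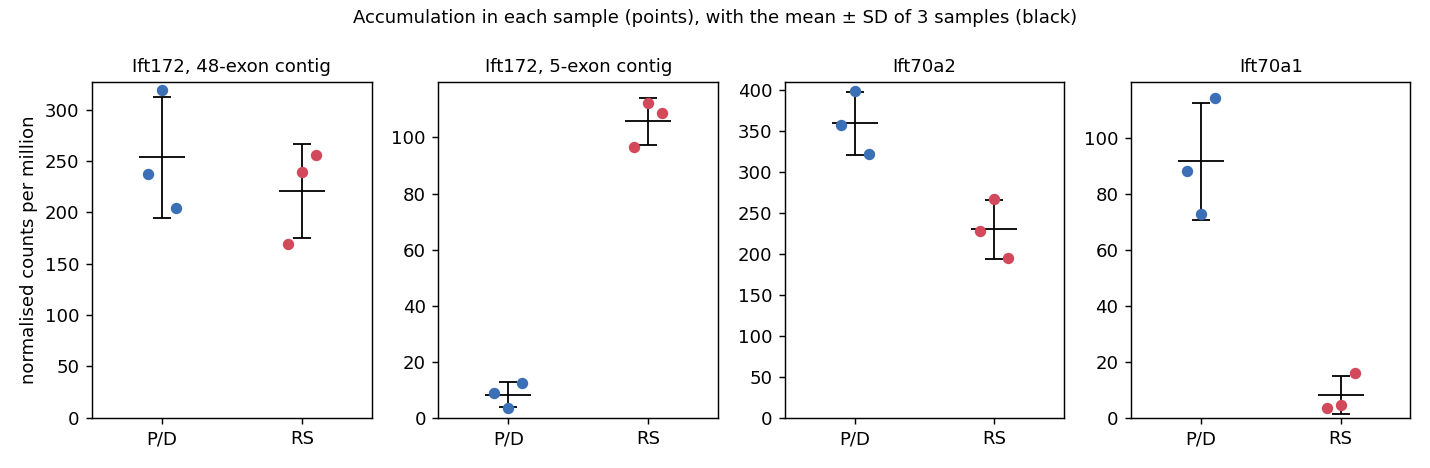
TMM-normalised CPM (y axis, from 0) of both Ift172 contigs and of Ift70a2 and Ift70a1 in each sample, with the mean and SD of 3 samples in black. The 5-exon Ift172 contig goes from a mean of 8.17 in P/D to 106 in RS while the 48-exon contig overlaps, and Ift70a1 goes from 91.7 to 8.03 while Ift70a2 goes from 359 to 229.7.

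Tails of the 48-exon contig measured 111, 106 and 109 nt across P/D and 169, 174 and 172 nt across RS, with SDs of 2.75 and 2.65 nt, and differed by 62.9 ± 5.36 nt (adjusted p = 0.00049). Those of the short contig were already long in P/D, with means of 146, 183 and 134 nt across P/D and 171, 163 and 176 nt across RS, although only 6 P/D reads stood behind them. Its difference of 15.5 ± 13.2 nt (adjusted p = 0.361) was not called. Without P/D replicate 2, a single read, it became 29.6 nt (adjusted p = 0.021). In RS both contigs had tails of similar length, 172 ± 2.65 and 169.8 ± 6.73 nt. Summed over both contigs, Ift172 changed by 0.37 ± 0.17 (adjusted p = 0.0469), which DESeq2 did not call (adjusted p = 0.134) and which was lost without P/D replicate 1 or 3 or RS replicate 2 or 3 (0.139, 0.302, 0.12 and 0.154).

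IFT-A drives return transport and the entry of membrane proteins. Of 5 genes tested in this complex 2 were lower and 1 higher in RS, and 3 had longer tails, counts near the shares over all genes. Ift140 was read on 2 contigs, a 30-exon mRNA and a 15-exon transcript of its 3′ part, and both were lower in RS. They had 62, 82 and 62 reads across P/D and 39, 64 and 35 across RS, and 51, 65 and 59 reads across P/D and 27, 52 and 34 across RS. Their log2 fold changes were -1.02 ± 0.19 (adjusted p = 7.02e-06) and -1.07 ± 0.20 (adjusted p = 9.04e-06). Tails of the first were 128, 105 and 105 nt across P/D and 160.1, 152 and 161 nt across RS, and of the second 115, 104 and 120.2 nt across P/D and 157, 152 and 155 nt across RS. Both differences, 45.1 ± 8.36 nt (adjusted p = 0.00473) and 42.0 ± 6.51 nt (adjusted p = 0.0023), left the groups apart.

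Ift122, another core subunit, had 338 reads spread over 5 contigs. Its deepest contig had 26, 33 and 29 reads across P/D and 19, 27 and 23 across RS, lower in RS at a log2 fold change of -0.78 ± 0.25 (adjusted p = 0.00586), a call that DESeq2 did not make (adjusted p = 0.0822). Tails of this contig were 83, 90.5 and 82 nt across P/D and 141, 143 and 153 nt across RS, longer by 60.5 ± 6.20 nt (adjusted p = 0.000604). The 16-exon contig ENSMUST00000124283 gained 77.0 ± 16.7 nt (adjusted p = 0.00884) without a called change in accumulation (0.27 ± 0.36, adjusted p = 0.528), and the gene as a whole changed by -0.32 ± 0.18 (adjusted p = 0.119). The tail therefore lengthened on both contigs that were tested, while the fall in reads was called on one.

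Ift43 was the member with most reads, 732 over its 2 contigs. The deeper had 63, 110 and 83 reads across P/D and 115, 189 and 124 across RS, and tails of 118, 97 and 108 nt across P/D and 147, 144 and 144 nt across RS, a gain of 37.4 ± 7.09 nt (adjusted p = 0.00515). In P/D its reads fell into a short and a long class, 54.3% at 30 to 120 nt and 34.8% at 120 to 210 nt, and in RS 32.9% and 55.8%. Accumulation of that contig was not called (0.30 ± 0.15, adjusted p = 0.0725), and the gene-level change of 0.36 ± 0.14 (adjusted p = 0.0242) was lost with DESeq2 (adjusted p = 0.0803) and without P/D replicate 1 or 3 or RS replicate 2 (0.177, 0.0523 and 0.0959). The smaller contig ENSMUST00000223269 was longer by 51.9 ± 16.3 nt (adjusted p = 0.0352), a call lost without P/D replicate 2 or 3 or RS replicate 1 (0.0727, 0.0779 and 0.0806).

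Ttc21b and Wdr35, outer IFT-A subunits, were the members of the complex without a called lengthening of the tail. Ttc21b had 31, 36 and 28 reads across P/D and 16, 36 and 15 across RS, lower by a log2 fold change of -0.95 ± 0.26 (adjusted p = 0.00138). Its tails were 121, 116 and 123 nt across P/D and 116, 99 and 84 nt across RS, with every RS sample below every P/D sample. The difference of -20.7 ± 9.21 nt (adjusted p = 0.104) was not called, and reached the threshold only without RS replicate 1 (-28.8 nt, adjusted p = 0.035). Wdr35 tails were 145, 121 and 111 nt across P/D and 153, 121 and 114 nt across RS on its deeper contig, which overlapped, and 121, 132 and 136 nt across P/D and 139, 139 and 132 nt across RS on the other. The differences were 3.5 ± 13.5 nt (adjusted p = 0.844) and 7.1 ± 6.54 nt (adjusted p = 0.4), and neither was called in accumulation, at -0.33 ± 0.29 (adjusted p = 0.327) and 0.18 ± 0.31 (adjusted p = 0.628). Wdr19, the remaining core subunit, had 35 reads in all and was not tested.

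Dynein-2, the return motor, had 4 genes with reads, of which 2 were lower and 1 higher in RS per gene. Dync2i2 (Wdr34 in GENCODE), an intermediate chain, counted 27, 41 and 40 reads across P/D and 12, 13 and 8 across RS, a log2 fold change of -2.13 ± 0.29 (adjusted p = 1.97e-08), or 4.38-fold lower. Its tails were 94, 88 and 91 nt across P/D and 158, 153 and 141 nt across RS, longer by 59.3 ± 6.74 nt (adjusted p = 0.000764). The other intermediate chain, Dync2i1 (Wdr60), went the opposite way in accumulation, with 8, 7 and 9 reads across P/D and 14, 32 and 18 across RS and a log2 fold change of 0.96 ± 0.35 (adjusted p = 0.0152). DESeq2 did not call Dync2i1 (adjusted p = 0.122), nor did edgeR without P/D replicate 2 or RS replicate 2 (0.0854 and 0.0932). Its tail gain of 52.2 ± 16.3 nt (adjusted p = 0.0343) was lost without any sample but P/D replicate 1 (adjusted p from 0.0537 to 0.1).

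The heavy chain Dync2h1, whose mRNA was the longest among the annotated members, had 104 reads over 2 contigs and was lower, at a log2 fold change of -1.16 ± 0.33 (adjusted p = 0.00242) per gene. That call did not hold without P/D replicate 2 (-0.82, adjusted p = 0.0605). Tails of its deeper contig (ENSMUST00000140466) were 126, 137 and 131 nt across P/D and 203, 142 and 142 nt across RS, a difference of 31.2 ± 17.4 nt (adjusted p = 0.179) that was not called and was 10.8 nt without RS replicate 1. With both contigs summed it was 8.0 ± 8.48 nt (adjusted p = 0.463). Tails of the light intermediate chain Dync2li1 were 128, 98 and 133 nt across P/D and 92, 106 and 124 nt across RS, which overlapped, and differed by -12.1 ± 12.7 nt (adjusted p = 0.458). Its accumulation was -0.41 ± 0.27 (adjusted p = 0.187) on the log2 scale.

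The BBSome contributed 6 genes with reads, 4 of them tested for tails and 3 for accumulation. Bbs5, a subunit with lipid-binding domains, was the member gene with the largest rise. It had 3, 8 and 4 reads across P/D and 31, 38 and 32 across RS, a log2 fold change of 2.30 ± 0.35 (adjusted p = 3.55e-07), or 4.92-fold higher. Its tails were 281, 179.7 and 205 nt across P/D and 167, 179.6 and 168 nt across RS, with the lowest P/D mean just above the highest RS mean. The difference of -50.6 ± 25.5 nt (adjusted p = 0.141) was not called, and passed the threshold only without P/D replicate 2 (-71.7 nt, adjusted p = 0.0441). The P/D means rested on 3, 8 and 4 reads.

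Bbip1, the smallest subunit, was read mainly on 1 of 4 contigs. That contig had 70, 69 and 64 reads across P/D and 54, 77 and 72 across RS, and a log2 fold change of -0.44 ± 0.18 (adjusted p = 0.028), a fall not called by DESeq2 (adjusted p = 0.177) or without P/D replicate 1 or RS replicate 1 or 2 (0.107, 0.0924 and 0.154). It was also lost with DESeq2 size factors in edgeR (adjusted p = 0.0554) and under a minimum of 10 counts in each sample (-0.24, adjusted p = 0.246). Per gene the change was -0.31 ± 0.16 (adjusted p = 0.0832). Tails of the same contig were 111, 111 and 109 nt across P/D and 159.8, 149 and 153 nt across RS, tight within each group and apart by 43.4 ± 5.73 nt (adjusted p = 0.00124). A further contig, ENSMUST00000236370, gained 74.0 ± 13.4 nt (adjusted p = 0.00438). Bbs7 tails gained 56.7 ± 9.57 nt (adjusted p = 0.00326) on its deeper contig, with means of 120.1, 108 and 93 nt across P/D and 173, 152 and 167 nt across RS. The other Bbs7 contig differed by 59.1 ± 30.2 nt (adjusted p = 0.145), which was not called, and became 91.7 nt (adjusted p = 0.00887) without P/D replicate 3.

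Bbs2 tails were long in both groups, 188, 209 and 194 nt across P/D and 201, 178 and 205 nt across RS, and differed by -2.3 ± 9.86 nt (adjusted p = 0.861) over 51 reads. Bbs4 and Bbs9 (38 and 29 reads) were not tested. Bbs4 tails averaged 139.1, 141.2 and 37.7 nt in P/D and 216.6, 237.6 and 194.1 nt in RS, from 4 to 9 reads each. Bbs10, a chaperonin-like factor in BBSome assembly, had 24 reads.

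Lztfl1 and Arl6 act on the assembled BBSome, Lztfl1 by holding it back from the cilium and Arl6 by recruiting it. Lztfl1 had 46, 68 and 35 reads across P/D and 80, 136 and 88 across RS on its main contig, higher in RS by 0.59 ± 0.18 (adjusted p = 0.00408). After scaling to depth the groups did not overlap, but the call was lost without P/D replicate 3 (log2 fold change 0.39, adjusted p = 0.0781). No lengthening of its tails was called, with means of 86, 106 and 105 nt across P/D and 98, 90.4 and 114 nt across RS, and the difference was 1.9 ± 9.20 nt (adjusted p = 0.873). Of its pooled reads 22.1% in P/D and 19.4% in RS had tails of 120 to 210 nt, and 59.7% and 73.0% tails of 30 to 120 nt. Arl6 tails likewise overlapped at 152, 145 and 115 nt across P/D and 141, 128 and 121 nt across RS (-7.5 ± 11.4 nt, adjusted p = 0.606). Its accumulation was 0.55 ± 0.28 (adjusted p = 0.0832) as a contig and 0.61 ± 0.27 (adjusted p = 0.0485) in the table of genes, a call that DESeq2 did not make (adjusted p = 0.184). Leaving out samples also ended it, except RS replicate 1 (adjusted p from 0.0575 to 0.227 without the others).

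**Figure D4:**
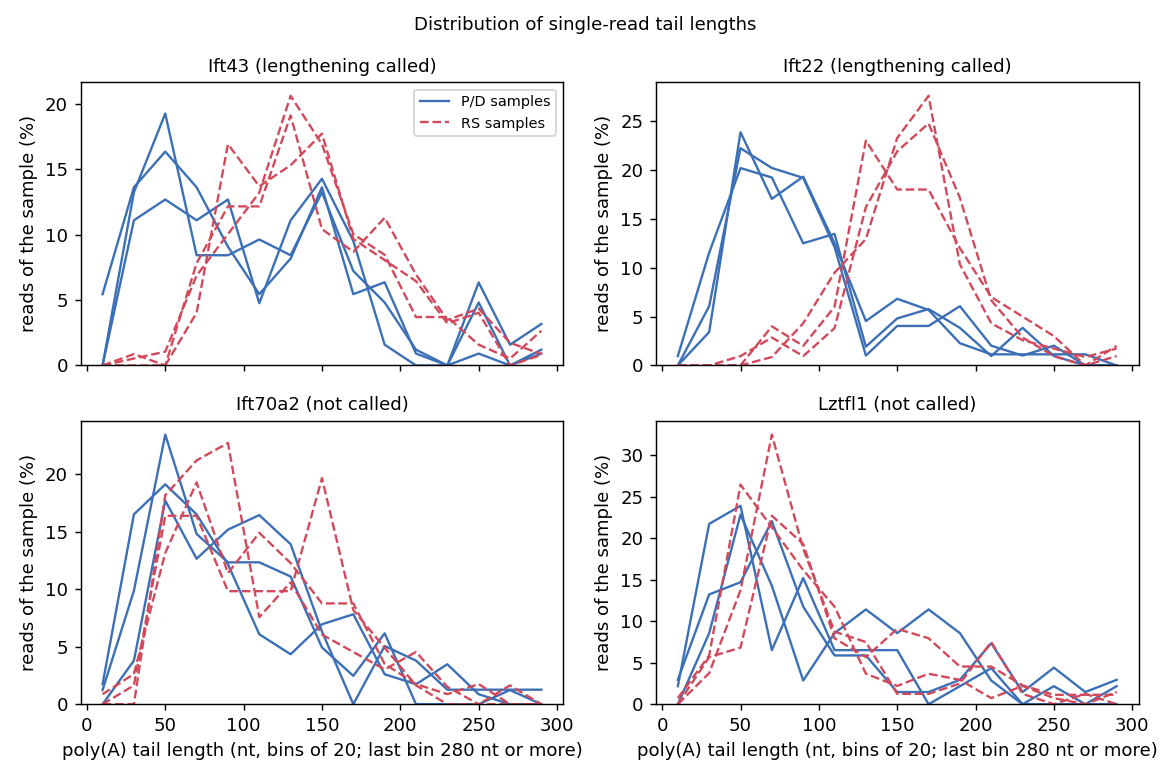
Share of a sample's reads (%, y axis) by poly(A) tail length in bins of 20 nt (x axis) for the contigs with most reads among those called longer (Ift43, Ift22) and those not called (Ift70a2, Lztfl1), with P/D samples as solid blue and RS samples as dashed red lines. Ift22 moves almost entirely above 120 nt in RS, with 78.2% of pooled reads at 120 to 210 nt, while Lztfl1 keeps 73.0% of its pooled RS reads at 30 to 120 nt.

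Both measures were tested for 33 contigs. Among the 15 with lower accumulation in RS, 12 had longer tails, and among the 5 with higher accumulation, 2 did (Ift57 and Dync2i1). The 3 higher contigs without a called lengthening were the short Ift172 contig, Bbs5 and Lztfl1. Of the 13 contigs with no called change in accumulation 9 had longer tails. Longer tails were called for 54.2% of all contigs tested, whatever their accumulation. The same split over all contigs called lower or higher was not made, so it cannot be read as a trait of the members.

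**Figure D5:**
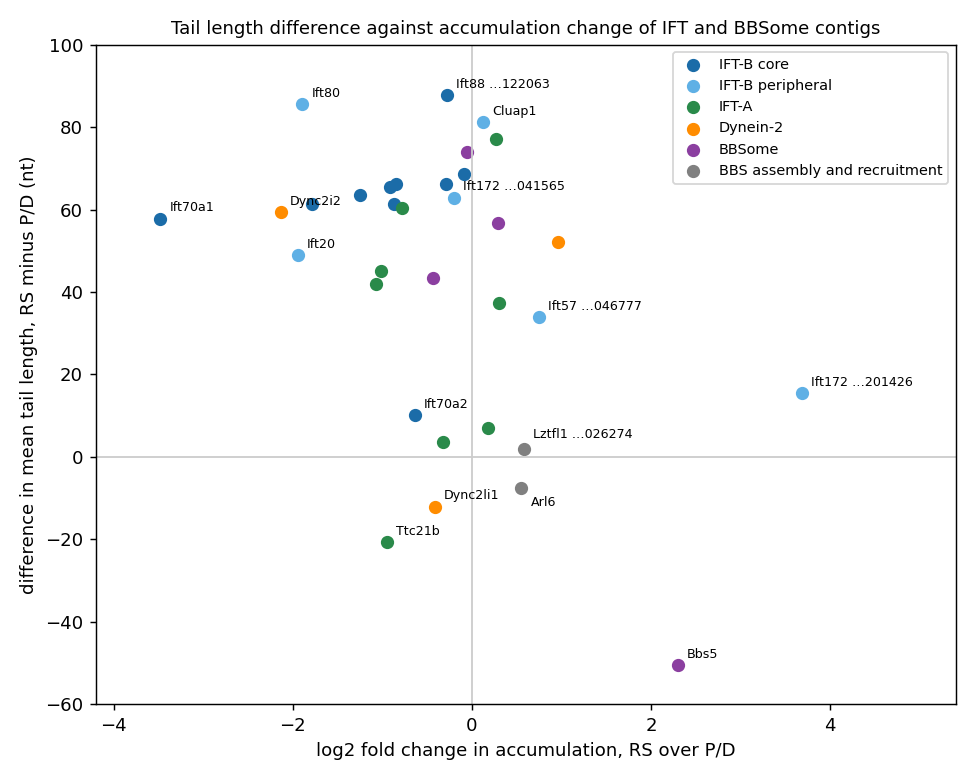
Difference in mean tail length (RS minus P/D, nt, y axis) against log2 fold change in accumulation (RS over P/D, x axis) for the 33 member contigs tested for both, coloured by complex. Most IFT-B core points lie at the upper left, with longer tails and lower accumulation, and Bbs5 lies alone at the lower right, at -50.6 nt and 2.30.

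Other genes of the cilium, not all of them transport genes, were more often higher than lower in RS. The lists around IFT and the BBSome held 95 symbols, some of them aliases or names of members. They too were chosen with earlier results of these data known. From these lists 61 genes outside the members had reads and 49 could be tested. In RS 21 were higher and 4 lower, beside 34.7% and 31.2% of all genes. Of the 21, the transition zone, distal appendage and transcription factor lists held 3, 4 and 4. The lists of relatives, kinesin-2 motors, kinases and cargo adaptors held 2 of 6 tested, 3 of 4, 1 of 3 and 4 of 15. The median log2 fold change was 0.41, against 0.01 for all genes tested. Tails were longer for 34 of 52, against 54.8% of all genes, and shorter for 2, with a median difference of 34.8 nt, against 35.0 nt for all genes tested. All 3 called kinesin-2 genes, of 4 tested, were higher, namely Kif17 by 3.69 (adjusted p = 6.32e-12), Kifap3 by 2.91 (adjusted p = 4.09e-13) and Kif3b by 0.48 (adjusted p = 0.0218). Kif3a was at -0.20 (adjusted p = 0.612). By these calls 3 of the 4 kinesin-2 genes tested were higher in RS, and 6 of 9 IFT-B core genes were lower. The difference between these small groups was not itself tested.

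Among the IFT-A and dynein-2 relatives outside the symbol rule, the dynein light chains Dynlt1b and Dynll1 had longer tails, by 37.9 nt (adjusted p = 0.000942) and 34.5 nt (adjusted p = 0.00204). Dynll1 was also higher by 0.72 (adjusted p = 9.03e-08), as was Ttc21a, the paralog of Ttc21b, by 2.31 (adjusted p = 1.68e-07). In the list of IFT kinases, which control turnaround, Mak was higher (1.67, adjusted p = 3.11e-08) and Cdk20 lower (-1.32, adjusted p = 1.2e-05). Cargo adaptors and small GTPases had 4 higher and 1 lower of 15, with Tulp2 at 2.62 (adjusted p = 1.29e-18), Arl2bp at 0.79 (adjusted p = 1.48e-06) and Arl3 at -0.35 (adjusted p = 0.00973). The 2 genes with shorter tails in RS belonged to that list, Pde6d at -24.7 nt (adjusted p = 0.0478) and Daw1 at -77.0 nt (adjusted p = 0.00488).

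Transition zone genes, which gate the base of the cilium, had 3 higher of 7, namely Cep290 (1.45, adjusted p = 2.78e-05), Tmem67 (1.80, adjusted p = 1.76e-05) and Tmem237 (1.07, adjusted p = 0.00033), and 5 of 8 had longer tails. Genes of the distal appendages, where trains dock, had 4 higher of 7, with Sclt1 at 1.72 (adjusted p = 7.01e-07) and Ttbk2 at 0.83 (adjusted p = 0.00303). Of the transcription factors known from ciliogenesis and spermatid gene expression 4 of 7 were higher, including Crem (1.00, adjusted p = 5.17e-08), Sox30 (1.42, adjusted p = 6.75e-06) and Foxj1 (2.71, adjusted p = 2.02e-08), and 2 were lower, Rfx4 (-1.13, adjusted p = 0.00412) and Mybl1 (-1.20, adjusted p = 0.00563). Rfx1 was also higher, by 2.82 (adjusted p = 1.37e-07), on 94 reads in all. Rfx2, an X-box factor of spermatids, was at 0.04 (adjusted p = 0.85) with tails longer by 58.6 nt (adjusted p = 0.000313). Ttc21a, Pde6d, Daw1, Cep290, Tmem67, Tmem237, Rfx1, Rfx4 and Mybl1 were named after their values were seen.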

How the data were processed

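Poly(A) RNA of 3 P/D and 3 RS samples was sequenced by direct RNA nanopore sequencing. The authors basecalled with Guppy, aligned reads to GENCODE transcripts (mm10) with minimap2 (2.20-r1061 in the submitters' processing notes), demultiplexed with Deeplexicon and measured tails with Nanopolish. They deposited raw read counts per contig and, per read, a tail length in nt, which is a signal-derived estimate. Thus the deposited count is not normalised, and the deposited tail signal has the error of single reads.

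The members and gene lists were chosen with earlier results of these data known. Counts were tested with edgeR 4.0.16 (TMM, quasi-likelihood, filter on low counts), with DESeq2 1.42.0 as an alternative, and mean tails per sample with limma 3.58.1, in R 4.3.3. A tail test needed 10 reads in 2 or more samples of either group. P-values were adjusted over all contigs or genes tested (threshold 0.05). Fits were tested on simulated data. Repeat-element contigs were not tested, and 12 member reads were listed on more than 1 contig. Every member gene was named, with its contig of most reads and any further contig past a threshold; related genes past a threshold were named by read number, at most 4 a list. P-values measure the spread between pools of 3 mice, and P/D and RS, taken from the same mice, were fitted without pairing. Depth was 244004 to 474688 reads per sample, and intervals cover counting error only.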

Additional observations from a re-analysis of the deposited data

How the results depend on the processing

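Of 103 results on single contigs and genes, 60 kept their call and direction under every alternative run. A minimum of 20 reads in each of the samples left 7 of 9 tested member contigs longer in RS, and a minimum of 10 counts left 9 of 22 lower, in both cases from fewer contigs tested. DESeq2 called 3 contigs and 3 genes higher, and without a filter on low counts edgeR called 5 genes higher. The difference in the tail class was 21.7 points for 120 to 180 nt and 29.2 points with equal weight of contigs. The cause was not tested. Leaving out each sample in turn gave 20 to 24 contigs longer, 0 to 1 shorter, 3 to 6 higher and 14 to 16 lower. Per gene it gave 17 to 19 longer, 0 to 1 shorter, 3 to 9 higher and 11 to 14 lower. For the related genes it gave 27 to 32 longer, 1 to 2 shorter, 21 to 23 higher and 3 to 4 lower, and for the tail class 30.3 to 32.1 points. The lowest count of contigs higher (3) came without P/D replicate 3, and the lowest count of genes higher (3) without P/D replicate 3 or RS replicate 2.

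Changes of sign occurred only in values that were not called. With median lengths the Arl6 and Bbs2 tail differences became 2.67 and 7.95 nt. With DESeq2 size factors Bbip1 ENSMUST00000236370 was at 0.0036, and under the minimum of 10 counts Ift74 was at 0.11 (log2). With single samples left out, tail differences ranged from -4.68 to 7.10 nt for Lztfl1, from -8.15 to 13.2 nt for Wdr35 ENSMUST00000111113 and from -6.66 to 3.64 nt for Bbs2. Per gene they ranged from -4.04 to 6.45 nt for Lztfl1, from -22.9 to 7.29 nt for Traf3ip1 and from -1.39 to 10.9 nt for Wdr35. Log2 fold changes ranged from -0.25 to 0.075 for Ift74, from -0.023 to 0.31 for Cluap1, from -0.36 to 0.026 for Ift172 ENSMUST00000041565, from -0.53 to 0.15 for Ift88 and from -0.32 to 0.16 for Bbip1 ENSMUST00000236370. Per gene they ranged from -0.34 to 0.14 for Ift88 and from -0.30 to 0.089 for Wdr35.

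The study isolated the germ cell types from the same mice, but the sources used here do not say whether equal pool numbers hold the same mice. Deviations of same-numbered samples from their group means had correlations of 0.0278, 0.237 and 0.069 in counts and -0.0106, 0.0771 and 0.0157 in tails. Those of differently numbered samples ran from -0.167 to 0.118 in counts and from -0.0816 to 0.0633 in tails. With 3 samples around each mean such values cannot decide the pairing. The samples were not treated as pairs in the main fits. With the replicate block, 24 contigs were longer, 5 higher and 15 lower, and 19 genes were longer, 8 higher and 12 lower. The block changed 2 calls, both of tails, Bbs7 ENSMUST00000040148 (adjusted p = 0.0466) and Ift43 ENSMUST00000223269 (adjusted p = 0.0714). For the related genes it gave 27 longer, 3 shorter, 23 higher and 4 lower. Depth limits the members with few reads, of which 23 contigs had no tail test and 28 no test of accumulation.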
